A study of Homo sapiens with 16 samples.

Results

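Sets of 4 breast cancer cell lines that differed in the size of their 6 h response to topsentinol L trisulfate (TLT) are described here. TLT is a sulfated sterol from a *Topsentia* sponge. The large-response set held HCC70, MDA-MB-157, MDA-MB-436 and MDA-MB-468, and the small-response set held HCC1143, HCC1395, HCC38 and MDA-MB-231, which makes 8 of 16 libraries in each set. The members were chosen from the TLT response itself: the large-response lines were the 4 of 8 with the largest median absolute change over genes. Every value of a TLT change between the sets is therefore a description and was not tested. Each established human line gave 1 library after TLT and 1 after the vehicle DMSO, so that the change of a single line has no replicate error. The labels name the dose as an EC75; for protein arrays of the same lines the study used a common dose near the average EC75, and the sources used here do not say for these libraries whether each line met its own EC75. The study's table of lines places HCC70, MDA-MB-468, HCC1143 and HCC1395 among the basal-like lines and MDA-MB-157, MDA-MB-436, HCC38 and MDA-MB-231 among the claudin-low lines, which gives 2 of each subtype in each set. No genetic modification or other agent was listed for any line.

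Basal-like and claudin-low breast cancers are mostly negative for hormone receptors and ERBB2 amplification. Basal-like cells keep epithelial keratins and cadherin, whereas claudin-low cells lose tight-junction claudins and express vimentin and other mesenchymal genes. The study asked which signals TLT blocks and discussed AMPK, CHK1 and p38 kinases. Cells exposed to a stressor commonly switch on immediate early genes such as FOS within minutes to hours. Messages also differ in lifetime: those of many zinc finger regulators are short-lived, whereas those of ribosomal proteins are abundant and long-lived.

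The libraries held an estimated 10.6 to 20.1 M reads (M, 1000000). In DMSO the large-response set had 15.5 ± 2.54 M reads (SD, n = 4 lines) and the small-response set 14.3 ± 2.17 M (exact two-sided permutation test, p = 0.49, adjusted over 4 library measures p = 0.54). After TLT the large-response set had 18.0 ± 1.88 M and the small-response set 12.8 ± 1.52 M, without overlap (exact permutation p = 0.029, the smallest that 4 against 4 can give, adjusted p = 0.11). The TLT library of HCC70 was 1.56 times and that of MDA-MB-157 was 1.27 times as deep as the DMSO library of the same line, against 0.83 to 1.07 times in the other lines. This depth moved with the set, and its part in the changes was not tested. The file headers carry a 1 after the run name for the MDA-MB lines and a 2 for the HCC lines, read here as the lane. On that reading 3 large-response lines and 1 small-response line came from lane 1. The marker CDH1, the epithelial cadherin, followed the subtypes in most lines: its DMSO value was 15234 in HCC70, 3134 in MDA-MB-468 and 5453 in HCC1143, and at most 26 in the claudin-low lines. HCC1395 went against its basal-like place, with a CDH1 value of 14 and a VIM (vimentin) value of 28234. The summed DMSO level of 7 mesenchymal markers was 937 in MDA-MB-468, 2666 in HCC70 and 8484 to 92262 in the claudin-low lines. It was 13212 in HCC1143 and 147081 in HCC1395, both basal-like and both above claudin-low HCC38 (8484). Of 5 blood markers, PTPRC had DMSO values of at most 1.01 and HBB was at 0 in every DMSO library. Their summed DMSO level was 59.7 to 876 in the large-response and 12.6 to 42.8 in the small-response lines, with CD14 at 866 in HCC70.

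Response size was the median absolute change, log2(TLT + 1) minus log2(DMSO + 1), across 14544 genes whose mean value reached 10. It was 0.49 in MDA-MB-157, 0.39 in HCC70, 0.32 in MDA-MB-436 and 0.29 in MDA-MB-468. In the small-response lines it was 0.27 in HCC1143, 0.27 in HCC38, 0.24 in MDA-MB-231 and 0.22 in HCC1395. MDA-MB-468, just inside the large-response set, was at 0.295 and HCC1143, just outside it, at 0.271, a gap smaller than that between MDA-MB-157 and HCC70. The deposited values had been set to a common upper quartile, and a second scaling by trimmed means of M-values (TMM) was used to separate library scaling from gene-specific change. With TMM the sizes were 0.45, 0.41, 0.30 and 0.28 in MDA-MB-157, HCC70, MDA-MB-436 and MDA-MB-468 and 0.22 to 0.27 in the small-response lines. The same 4 lines had the largest values after TMM, after centring each line on its median change, and at each filter and pseudocount tried.

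**Figure D1:**
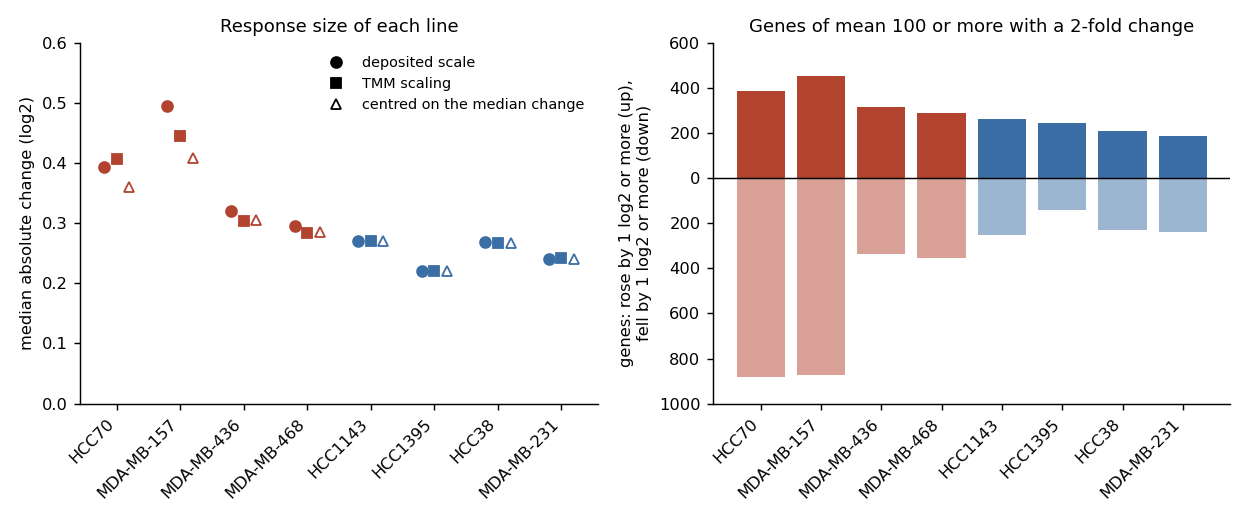
Left, median absolute TLT change of each line (log2) on 3 scales; right, number of genes of mean 100 or more with a log2 change of 1 or more (above the zero line) or of -1 or less (paler, below it). Red is the large-response set and blue the small-response set; MDA-MB-157 and HCC70 stand above the rest, with 872 and 884 genes lower by 1 or more.

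Falls of message level set HCC70 and MDA-MB-157 apart from the other 6 lines. Among 11269 genes with a mean value of 100 or more, 884 had a log2 change of -1 or less in HCC70 and 872 in MDA-MB-157, against 335 in MDA-MB-436, 356 in MDA-MB-468 and 142 to 251 in the small-response lines. Increases of that size were more even. They numbered 385 in HCC70, 454 in MDA-MB-157, 317 in MDA-MB-436 and 287 in MDA-MB-468, and 185 to 262 in the small-response lines. In both HCC70 and MDA-MB-157, 490 genes were lower by 1 or more (55.4% of the genes of HCC70 and 56.2% of those of MDA-MB-157). Their TLT libraries were also 1.56 and 1.27 times as deep as their DMSO libraries. The part of depth in these falls was not tested. MDA-MB-436 and MDA-MB-468 shared 161 genes lower by 1 or more (48.1% and 45.2% of each line's genes). The other large-response pairs shared 144 to 189 (16.5% to 53.1% of a line's genes). Pairs of small-response lines, which had fewer such genes, shared 25 to 61 (10.9% to 25.6%). Mixed pairs shared 19 to 77 (2.18% to 31.5%), so some mixed pairs shared more than any small-response pair.

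Across these 11269 genes the changes of 2 large-response lines correlated with Pearson's r between 0.42 and 0.65 over 6 pairs, the highest for HCC70 and MDA-MB-157. The 6 pairs of small-response lines lay between 0.38 and 0.48, and the 16 mixed pairs between -0.06 and 0.48. The lowest mixed value was that of MDA-MB-157 and HCC38, both claudin-low, and HCC70 with HCC38 gave 0.08. MDA-MB-436 and MDA-MB-468 correlated with HCC1143, HCC1395 and MDA-MB-231 at 0.43 to 0.48 but with HCC38 at 0.32 and 0.28, below every pair of small-response lines. These correlations are across genes, which are not independent replicates, and all lines share the normalization.

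Between the sets, the changes of 1931 genes did not overlap with the large-response lines higher (13.3% of 14544) and those of 821 did not overlap with the large-response lines lower (5.64%). Higher genes were thus 70.2% of the genes without overlap. After TMM the counts were 1250 (8.59%) and 1129 (7.76%), a share of 52.5% higher, and after centring on the median they were 1054 and 1260, a share of 45.5%. The median change of all genes in MDA-MB-157 moved from 0.22 on the deposited scale to 0.11 after TMM. Both scales together left 1242 genes higher (8.54%) and 818 lower (5.62%) in the large-response lines, and the results below use those. Of the 1242, 1028 had a positive change in all 4 large-response lines, 485 a negative change in all 4 small-response lines, and 271 met both conditions. Of the 818, 672 had a negative change in all 4 large-response lines, 277 a positive change in all 4 small-response lines, and 131 met both conditions.

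The immediate early genes FOS, FOSB, ARC and ATF3 were among the genes without overlap, with the large-response lines higher. FOS and FOSB encode subunits of the AP-1 transcription factor. FOSB went from 39.7 to 1104 in HCC70, from 69.7 to 987 in MDA-MB-157, from 65.9 to 357 in MDA-MB-436 and from 48.6 to 451 in MDA-MB-468, as normalized RSEM values in DMSO and TLT. In the small-response lines FOSB went from 56.7 to 194 in HCC1143, from 51.6 to 130 in HCC1395, from 75.7 to 269 in HCC38 and from 91.7 to 213 in MDA-MB-231. The DMSO values of FOSB overlapped between the sets and the TLT values did not. The log2 change of FOSB was 3.54 ± 0.99 (SD, n = 4) in the large-response and 1.52 ± 0.31 in the small-response lines, and over all 8 lines FOSB rose by 2.53 (SE 0.35, limma, adjusted p = 4.8e-04).

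FOS went from 199 to 2714 in HCC70, from 166 to 1291 in MDA-MB-157, from 181 to 1005 in MDA-MB-436 and from 74.6 to 396 in MDA-MB-468. In the small-response lines its TLT values were 120 to 337. The FOS changes were 2.90 ± 0.63 and 1.25 ± 0.41 (SD, n = 4 lines each). ARC, which encodes an activity-regulated cytoskeletal protein, changed by 3.84 to 6.26 in the large-response lines and by 1.37 to 2.71 in the others, and ATF3, a stress-induced member of the ATF/CREB family, by 1.39 to 2.47 and by 0.48 to 1.05. All 4 rose in 8 of 8 lines, so the sets differed in the size of the increase and not in its direction.

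FOS (chr14:75745531-75748933) and FOSB (chr19:45971254-45978437, both hg19, plus strand, GENCODE) have 4 coding exons each, and the bases before their starts are shown because both carry the TGACGT core of a cAMP response element close to the start. The 120 bases before each RefSeq start follow, from GRCh38.p14 chr14:75278708-75278827 and chr19:45467876-45467995, 5′ to 3′, with TGACGT in capitals.
FOS: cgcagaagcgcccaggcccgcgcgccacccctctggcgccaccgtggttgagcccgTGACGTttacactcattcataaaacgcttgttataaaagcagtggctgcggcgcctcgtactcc
FOSB: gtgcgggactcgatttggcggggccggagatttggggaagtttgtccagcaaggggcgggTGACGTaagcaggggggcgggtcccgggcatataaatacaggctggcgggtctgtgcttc
The motif begins 64 bases before the start of FOS and 60 before that of FOSB. Searched on both strands (TGACGT or its reverse complement ACGTCA) over 250 bases before the start, it occurred in 7.10% of 35116 RefSeq windows. It occurred in 4 of the 9 genes with a window among the 10 of largest difference in the higher direction, and in 0 of 8 in the lower direction. The other matches were KISS1, which had few reads in 7 of 8 lines, and ADAMTS3. These genes were picked by their changes, so the counts are a description and no enrichment was tested.

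The other 7 of the 10 genes with the largest difference in the higher direction were KISS1, CRISP3, SPOCD1, SAMD9L, IL8, ADAMTS3 and GPX3. Most of these rested on few reads in some lines. KISS1 (the kisspeptin precursor) and CRISP3 (a secreted cysteine-rich protein) had values under 10 in both libraries of 7 of 8 lines and passed the filter through MDA-MB-231 and MDA-MB-468 respectively. IL8, a neutrophil chemokine, went from 1819 to 4478 in HCC70, from 98.7 to 215 in MDA-MB-157, from 424 to 4892 in MDA-MB-436 and from 2.43 to 6.36 in MDA-MB-468. Its changes in HCC1143, HCC1395, HCC38 and MDA-MB-231 were -0.74, 0.59, 0.04 and 0.59. IL8 was not called over all 8 lines (adjusted p = 0.054). SAMD9L, an interferon-inducible gene, differed in direction within the large-response set, with changes of 1.31 in HCC70, 0.66 in MDA-MB-157, -0.43 in MDA-MB-436 and -0.14 in MDA-MB-468, all above those of the small-response lines (-2.11 to -0.73).

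**Figure D2:**
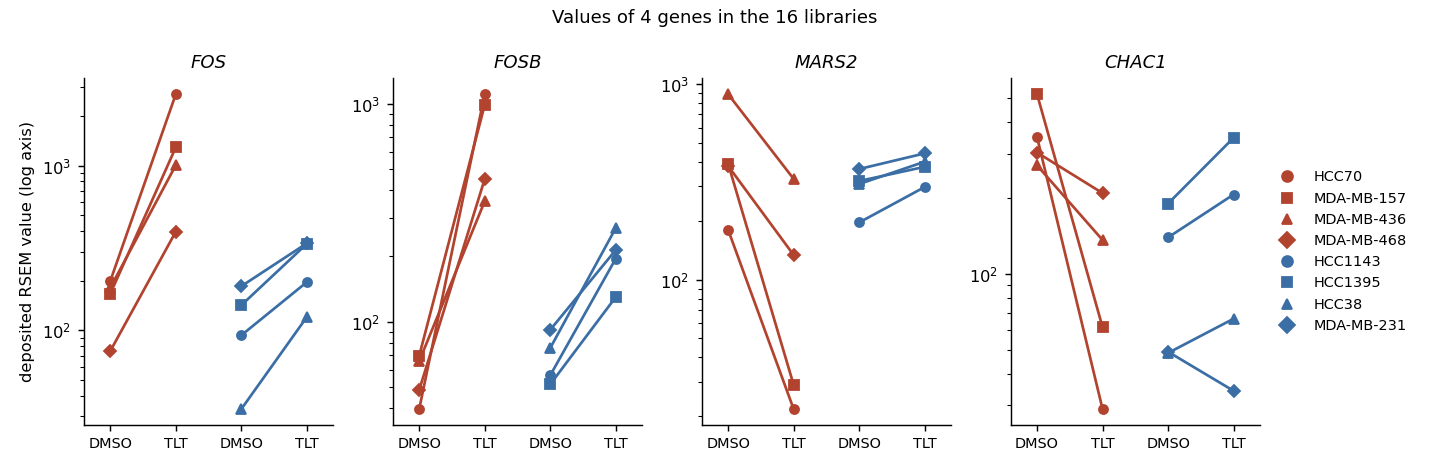
Normalized RSEM values (log axis) of 4 genes in the 16 libraries, with a line joining the DMSO and TLT library of each cell line; red is the large-response and blue the small-response set. FOS and FOSB go up in every line and more so in red, whereas MARS2 goes down in the 4 red lines and up in the 4 blue ones.

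MARS2, which encodes the mitochondrial methionyl-tRNA synthetase, had the largest difference in the lower direction. Its gene (chr2:198570093-198573119, hg19, plus strand) has 1 coding exon. MARS2 went from 180 to 21.8 in HCC70, from 391 to 28.9 in MDA-MB-157, from 889 to 328 in MDA-MB-436 and from 382 to 134 in MDA-MB-468. In the small-response lines it went from 196 to 298 in HCC1143, from 320 to 378 in HCC1395, from 308 to 401 in HCC38 and from 368 to 443 in MDA-MB-231. DMSO values of the sets overlapped and the changes had opposite signs in every line, at -2.41 ± 1.12 (SD, n = 4) against 0.37 ± 0.16. Over all 8 lines MARS2 was not called (log2 change -1.02, SE 0.47, limma, adjusted p = 0.13).

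CHAC1, which degrades glutathione and is a target of the integrated stress response, behaved similarly. It went from 349 to 29.0 in HCC70, from 517 to 61.3 in MDA-MB-157, from 269 to 136 in MDA-MB-436 and from 303 to 209 in MDA-MB-468. Its change was 0.44 to 0.86 in HCC38, HCC1143 and HCC1395 but -0.50 in MDA-MB-231, close to the -0.53 of MDA-MB-468. Its DMSO values, which enter the change, were 269 to 517 in the large-response and 48.5 to 190 in the small-response lines.

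The rest of the 10 were C15orf39, C22orf29, TP53INP1 (a p53-induced regulator of autophagy and cell death) and 5 zinc finger genes, ZNF697, ZNF443, ZNF484, ZNF398 and ZNF786. In C22orf29 (1 coding exon) the changes were -3.55 in HCC70, -3.10 in MDA-MB-157, -1.78 in MDA-MB-436 and -1.64 in MDA-MB-468 and -0.67 to -0.14 in the other lines. TP53INP1 was the member in which MDA-MB-436 (-2.31) lay beside HCC70 (-2.27) and MDA-MB-157 (-2.37), with MDA-MB-468 at -1.20. In the other 9 of these 10 genes HCC70 and MDA-MB-157 had the most negative changes of the 8 lines. C22orf29, ZNF484, TP53INP1 and ZNF786 fell over all 8 lines (limma, adjusted p = 0.011 to 0.023).

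**Figure D3:**
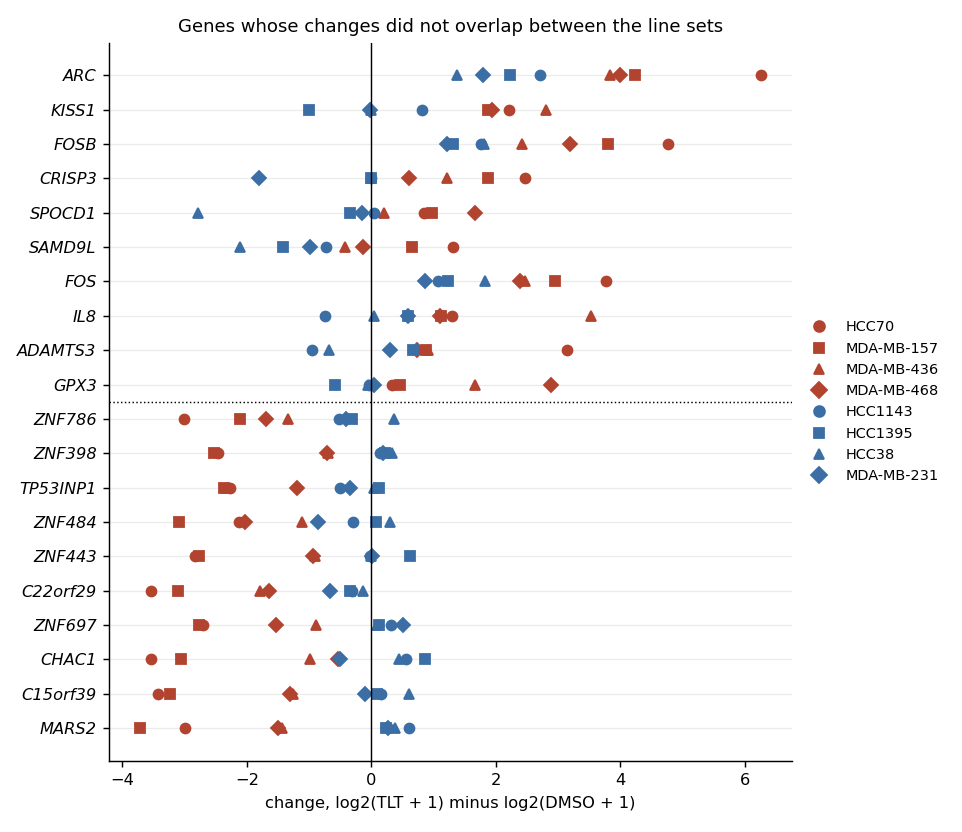
Log2 TLT change in each of the 8 lines for the 20 genes with the largest difference between the sets, 10 higher above the dotted line and 10 lower below it. Red is the large-response set and blue the small-response set; the colours do not overlap because the genes were picked that way, and HCC70 (circle) and MDA-MB-157 (square) lie farthest left for 9 of the lower 10 genes.

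Zinc finger genes as a class had lower changes in the large-response lines. Most ZNF genes encode transcriptional repressors with arrays of C2H2 zinc fingers. The median change of the 490 tested genes with a ZNF name was -0.95 in HCC70, -0.83 in MDA-MB-157, -0.37 in MDA-MB-468 and -0.29 in MDA-MB-436, and -0.09 to 0.06 in the small-response lines. Among them 112 had lower and 3 had higher changes without overlap on both scales (22.9% and 0.61%), beside 5.62% and 8.54% of all genes. Over all 8 lines 133 ZNF genes fell and 11 rose (limma), beside 10.9% and 15% of all genes tested.

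Transcript structure was not used by the rule. Genes with 1 coding exon made up 13.3% of the 708 lower genes of mean 100 or more with a matched GENCODE transcript, beside 4.64% of all 10880 and 2.34% of the 1068 higher genes. Without the ZNF genes the share among lower genes was 14.2%. The median number of coding exons was 6 in lower, 8 in higher and 9 in all genes, and the median length of the 3′ untranslated region was 1956, 960 and 1386 bases. Genes with 1 coding exon had a median change of -0.38 in HCC70, -0.34 in MDA-MB-157, -0.23 in MDA-MB-468 and -0.22 in MDA-MB-436, and of -0.11 to 0.00 in the small-response lines. In the lowest quintile of DMSO level the 1-exon genes were below 0 in all 8 lines, at -0.47 to -0.32 in the large-response and -0.25 to -0.15 in the small-response lines. In the next 3 quintiles the large-response lines were at -0.61 to -0.19, -0.49 to -0.21 and -0.26 to -0.06, and the small-response lines at -0.11 to 0.03, -0.12 to 0.13 and -0.11 to 0.09. In the highest quintile, with 50 such genes, they were at 0.04 to 0.16 and 0.01 to 0.07. Genes with 5 or more coding exons were there at 0.16 to 0.34 and 0.05 to 0.11, above the 1-exon genes in each line. In the lowest quintile they were at 0.06 to 0.36 and -0.18 to -0.04. In the 3 quintiles between, the large-response lines were at -0.03 to 0.18, -0.02 to 0.11 and 0.06 to 0.17. The small-response lines were at -0.15 to -0.08, -0.07 to -0.04 and -0.01 to 0.02.

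Abundant messages shifted the other way. In the quintile of genes with the highest DMSO level (1733 and above) the median change was 0.35 in MDA-MB-157, 0.30 in HCC70, 0.25 in MDA-MB-436 and 0.17 in MDA-MB-468, against 0.04 to 0.11 in the small-response lines. After TMM these were 0.24, 0.32, 0.16 and 0.11, and 0.07 to 0.11 in the small-response lines, so that MDA-MB-468 no longer stood apart. In that quintile 16.9% of genes had higher and 2.80% lower changes without overlap. At a mean of 5000 or more the response size was 0.27 to 0.54 in the large-response and 0.11 to 0.21 in the small-response lines, 2.86 times as high on average, where over all genes the set means were 0.38 and 0.25. The summed signal of the TLT library was 1.10 to 1.26 times that of the DMSO library in the large-response lines and 1.03 to 1.07 times in the others.

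**Figure D4:**
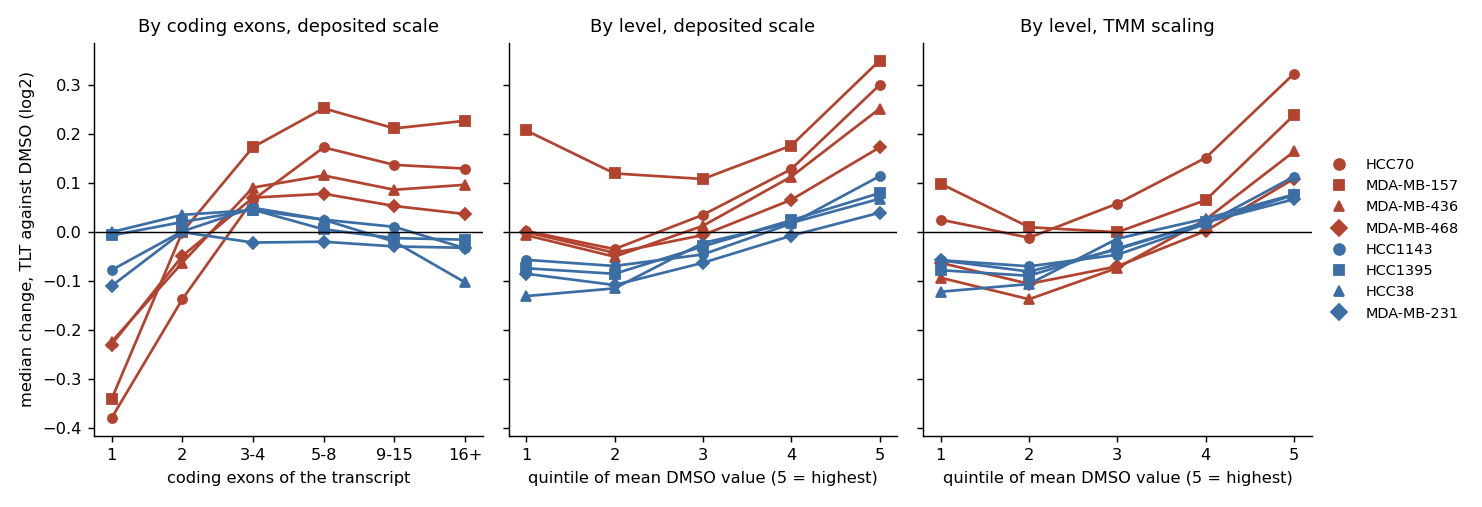
Median log2 TLT change of each line for genes of mean 100 or more, grouped by number of coding exons (left, deposited scale) and by quintiles of DMSO level (middle, deposited scale; right, TMM scaling). Red is the large-response and blue the small-response set; red lines are lowest at 1 coding exon and highest in the top quintile of level, where MDA-MB-468 meets the blue lines after TMM.

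Genes for protein synthesis, protein turnover and respiration also had higher changes in the large-response lines. These lists were not set against other genes of like DMSO level. In the highest quintile of DMSO level 16.9% of genes had higher changes without overlap. Among 30 ribosomal proteins of the large subunit, 25 rose (83.3%, beside 15% of all genes) and 0 fell over all 8 lines. Of the 30, 17 had higher changes in the large-response set without overlap on both scales (56.7%, beside 8.54% of all genes). RPL23 changed by 0.53 in HCC70, 0.57 in MDA-MB-157, 0.53 in MDA-MB-436 and 0.30 in MDA-MB-468, and by 0.08 to 0.21 in the other lines. Ribosomal protein genes have many near-identical pseudogenes, and how reads were shared among the copies was not examined. Of 31 proteasome genes 16 rose (51.6%) and 0 fell over all lines, and 12 were higher in the large-response set (38.7%). PSMC1, an ATPase of the regulatory particle, was among them (0.40 to 0.56 against 0.04 to 0.23). Of 29 oxidative phosphorylation genes 10 rose (34.5%) and 0 fell, and 8 were higher in the large-response set (27.6%). The median change of each of the 3 lists was higher in all 4 large-response lines than in any small-response line. After TMM this order held with a narrow margin, since MDA-MB-468 and HCC1143 were at 0.24 and 0.23 for ribosomal proteins, 0.15 and 0.13 for the proteasome and 0.12 and 0.12 for oxidative phosphorylation.

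Other stress lists separated the sets in part. Over all genes tested, 15% rose and 10.9% fell over the 8 lines, and 8.54% were higher and 5.62% lower in the large-response set without overlap on both scales. Of 25 immediate early genes 16 rose (64.0%) and 0 fell, and 4 were higher without overlap (16%). The list median was 1.15 in MDA-MB-468, 1.11 in HCC70 and 1.03 in MDA-MB-436 but 0.56 in MDA-MB-157, below HCC38 (0.71) and HCC1395 (0.76). For 19 NF-kappaB targets the median was 0.32 to 1.41 in the large-response and -0.72 to 0.49 in the small-response lines, and 2 rose (10.5%, below the share of all genes) and 0 fell in all lines together. Only IL8 and CCL20 of these 19 were higher in the large-response set without overlap (10.5%, near the 8.54% of all genes). CCL20, a chemokine, had changes of 1.87 to 2.72 against -1.30 to 1.06 and was not called over the 8 lines (limma, adjusted p = 0.052). The list of 16 p53 targets overlapped between the sets, with medians of -0.32 to 0.07 against -0.19 to 0.41. Of its members 2 were higher (12.5%) and 3 lower (18.8%) in the large-response set without overlap on both scales. One of the higher members was GADD45B, a stress-induced regulator of MAP kinase signalling. GADD45B rose over all lines (0.99, SE 0.20, limma, adjusted p = 0.0045), by 0.98 to 2.13 in the large-response and by 0.18 to 0.69 in the small-response lines. In the list of the integrated stress response, which ATF4 drives when translation is slowed, 2 of 23 genes rose (8.70%) and 1 fell (4.35%) over all lines, both below the shares of all genes. ATF4 itself rose over all 8 lines (0.67, limma, adjusted p = 4.1e-05). The list median was -0.60 in HCC70, -0.27 in MDA-MB-157, 0.00 in MDA-MB-436 and 0.15 in MDA-MB-468 and -0.07 to 0.30 in the small-response lines, an overlap.

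Several programmes with called changes did not follow the split. Of 27 genes of cholesterol synthesis and uptake, 20 rose (74.1%, beside 15% of all genes) and 0 fell over the 8 lines, and 0 had changes without overlap in either direction, beside 8.54% and 5.62% of all genes. The list median was highest in HCC1143 (0.83) and HCC1395 (0.70) and low in MDA-MB-157 (0.14) and HCC38 (0.09), so the line with the largest response size was near the bottom. For MAP kinase phosphatases and Sprouty genes, which feed back on ERK signalling, 6 of 15 rose (40.0%) and 0 fell, and the list median was -0.77 in MDA-MB-157 and -0.03 in HCC70 but 1.12 in MDA-MB-468 and 0.49 to 0.86 in the small-response lines. SPRY1 was the 1 member of the 15 without overlap (6.67%, near the 5.62% of all genes). It was lower in the large-response lines, by a narrow margin (-2.02 to -0.25 against -0.20 to 0.92). Of 23 homologous recombination and Fanconi genes 15 fell (65.2%, beside 10.9% of all genes) and 0 rose, with list medians of -0.30 to -0.26 in the large-response and -0.47 to -0.27 in the small-response lines. Of 18 ATR and CHK1 pathway genes 7 fell (38.9%) and 0 rose, and CLSPN, the adaptor through which ATR activates CHK1, fell by 0.80 over all lines (SE 0.15, adjusted p = 0.0024), with changes of -1.41 to -0.88 against -0.66 to 0.10. CLSPN was the 1 member without overlap in the lower direction (5.56%, near the 5.62% of all genes). In the higher direction 3 members were so (16.7%, beside 8.54% of all genes), namely the checkpoint kinase CHEK2, the replication fork protein TIMELESS and the ATR activator TOPBP1, none of them called over all lines.

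**Figure D5:**
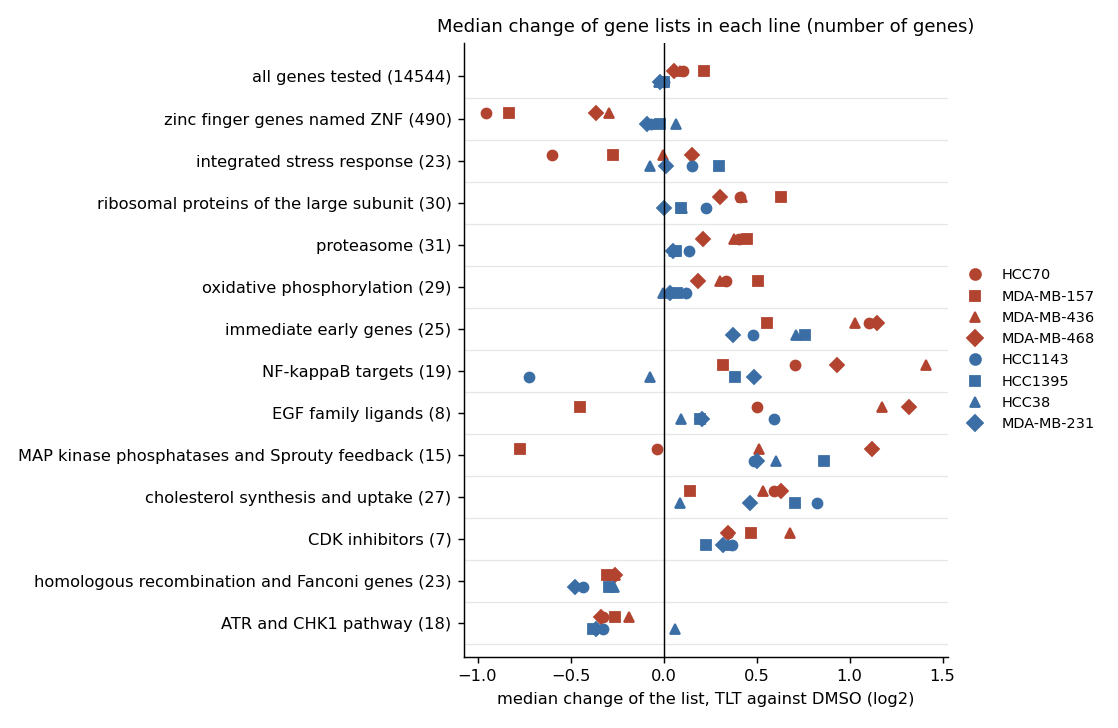
Median log2 TLT change of all tested genes and of 13 gene groups in each line, with the number of tested genes in brackets; red is the large-response and blue the small-response set. Zinc finger genes are lower and ribosomal, proteasome and respiratory genes higher in all 4 red lines, while cholesterol, MAP kinase phosphatase and DNA repair lists mix the colours.

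For AMPK, CHK1 and p38 the study followed protein phosphorylation, which message levels do not measure. Genes for the kinases that the study discussed, and for their partners and substrates, mostly overlapped between the sets. Most genes did so: 8.54% of all genes tested were higher and 5.62% lower without overlap on both scales. The overlap is therefore not particular to these 9 genes. CHEK1 (CHK1) changed by -0.26 to 0.02 in the large-response and by -0.28 to 0.18 in the small-response lines. PRKAA1, the catalytic AMPK subunit of most tissues, changed by 0.60 in HCC70, 0.23 in MDA-MB-157, -0.18 in MDA-MB-436 and 0.13 in MDA-MB-468 and by -0.58 to -0.04 in the others, an overlap through MDA-MB-436. MAPK14 (p38 alpha) was the 1 gene of these 9 without overlap, with -0.77 in MDA-MB-157, -0.64 in MDA-MB-436, -0.29 in HCC70 and -0.20 in MDA-MB-468 against -0.12 to 0.20, and it was not called over all lines (adjusted p = 0.095). CDC25C, a phosphatase that CHK1 inhibits, fell over all lines (-0.42, adjusted p = 0.029), and MAPKAPK2, a p38 substrate kinase, rose (0.23, adjusted p = 0.013), and both sets overlapped. ACACA, ACACB, RPTOR and PRKAA2 were not called and overlapped between the sets. ACACB and PRKAA2 had large changes in single lines at low values: ACACB, an acetyl-CoA carboxylase, was at 0 in DMSO and 6.35 in TLT in HCC70 and at 0.93 and 7.20 in HCC1143, and PRKAA2, the other catalytic AMPK subunit, was at 5.06 and 0 in HCC1395.

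Over all 8 lines, with the line as a block and no use of the split, 2188 genes rose and 1586 fell (limma, Benjamini-Hochberg adjusted p under 0.05, 15% and 10.9% of 14544). To describe how far each line shared this response, genes were called in the other 7 lines and their changes read in the line left out. The median change of the genes so called as rising was 0.53 in MDA-MB-436, 0.49 in HCC70, 0.45 in MDA-MB-468 and 0.44 in MDA-MB-157, and 0.30 in HCC1143, 0.23 in HCC1395, 0.21 in MDA-MB-231 and 0.17 in HCC38. For falling genes it was -0.68 in MDA-MB-468, -0.67 in MDA-MB-436 and -0.66 in HCC70 but -0.33 in MDA-MB-157, and -0.52 in HCC1143, -0.49 in MDA-MB-231, -0.34 in HCC1395 and -0.20 in HCC38. These medians are over different lists, of 1362 to 2282 rising and 1059 to 1717 falling genes, the longest falling list being that for MDA-MB-157, so the lines are not ranked by them. Without MDA-MB-436 the number of called genes dropped from 3774 to 2421, the largest effect of any line.

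The DMSO libraries were then compared between the sets. The comparison is not independent of the choice of lines, because each DMSO value also enters that line's change. None of 14378 genes passed (limma, 4 against 4 lines, 0% called, with 630 at an unadjusted p under 0.05). In simulated data of this design 54 of 100 genes with a difference of 4 on the log2 scale and 22 of 100 with a difference of 2 were recovered, so that smaller differences would mostly be missed. ANPEP, the membrane aminopeptidase CD13, had the smallest p in the higher direction. Its DMSO value was 943 in HCC70, 8717 in MDA-MB-157, 9682 in MDA-MB-436 and 1139 in MDA-MB-468, and 5.58 in HCC1143, 66.7 in HCC1395, 2.36 in HCC38 and 15.1 in MDA-MB-231. The sets did not overlap, and the difference was 7.95 (log2, SE 1.09, adjusted p = 0.37). DYRK1A, a kinase of splicing factors and transcription factors, had DMSO values of 1717 to 2552 in the large-response and 485 to 1044 in the small-response lines (adjusted p = 0.995). The other genes of smallest p were SOX11, PITPNM3, HIST1H2AC and B3GNT9 with higher values, and ACTA2, SLC29A1, HOXA9, CPS1, SAMHD1 and AGPAT9 with lower values in the large-response lines, none of which passed. The summed DMSO level of the 7 mesenchymal markers ran from 937 to 92262 in the large-response and from 8484 to 147081 in the small-response lines, and that of the 8 epithelial markers from 1233 to 63874 and from 590 to 50925, so that both overlapped widely.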

How the data were processed

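RNA of 8 cell lines, treated with TLT or DMSO for 6 h, was sequenced from poly(A)-selected, unstranded libraries with 50-cycle single reads. The authors aligned reads to hg19 with MapSplice, estimated gene counts with RSEM and set the 75th percentile of each library near 1000, so what they deposited is a rescaled expression signal, on which no count test was run. Values under 60 were whole multiples of a per-library step (within 0.01) for 83.0% to 84.9% of genes, from which depth was estimated. Of 20531 rows, 29 without a gene name (0.027% to 0.053% of signal) were left out. Columns of the authors' own fold changes were not used.

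Values were tested as log2(value + 1) with limma 3.58.1 (R 4.3.3), trend on, for genes of mean 10 or more, with cell line as a block for TLT against DMSO over 8 lines and without covariates for DMSO libraries between sets; fold changes of low genes are understated on this scale. The fits were tested on simulated data. TMM was computed unweighted, trimming 30% of M and 5% of A. Transcript structures were from GENCODE 44 on hg19, matched by symbol for 12221 and by synonym for 1461 of the 14544 tested genes. Library measures were compared by exact two-sided permutation. P-values measure the spread between lines, each with 1 library per treatment. Named genes were the 10 per direction of largest difference without overlap on both scales at a mean of 100 or more, up to 3 called members of each list, up to 6 per direction of smallest p in DMSO, and 9 kinase-pathway genes; other list members were named after their values were seen. The sets, gene lists and rules were chosen with earlier results of these data known. Alternatives were TMM, 4 filters, 2 pseudocounts, centring, no block, no trend, covariates and leaving out each line.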

Additional observations from a re-analysis of the deposited data

Results flagged for a closer look

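Among 60 groups of 4 lines examined for part of the named genes and for the response sizes, 10 held a line far from the other 3 by Dixon's criterion, where chance gives about 1 in 20. In the large-response set these were HCC70 for ARC (change of 6.26) and ADAMTS3 (3.14), MDA-MB-436 for IL8 (3.52) and ACACA (-0.22), and MDA-MB-468 for TP53INP1 (-1.20). In the small-response set they were MDA-MB-231 for CRISP3 (-1.81), HCC38 for SPOCD1 (-2.79) and HCC1395 for GPX3 (-0.59), ZNF443 (0.63) and PRKAA2 (-2.60). The values of CRISP3 in MDA-MB-231, SPOCD1 in HCC38 and PRKAA2 in HCC1395 were under 10 in both libraries.

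Among the named genes examined, 3 had changes of opposite sign in every line of the sets, namely MARS2 (large-response minus small-response mean -2.78), ZNF697 (-2.23) and ZNF398 (-1.82). These differences were not tested, because the lines were chosen from the same changes.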

How the results depend on the processing

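The 4 lines of largest response size stayed the same under all 8 alternatives. The mean difference of 0.13 between the sets became 0.26 at a mean of 5000 or more, a filter added after seeing the data. The count of 3774 genes called over all 8 lines (2188 higher, 1586 lower, of 14544) was 1698 (1447 and 251) at a mean of 1000 or more, where only 4275 genes were tested. Without the block for cell line, the replicate block of this design, 7 genes were called (7 higher, 0 lower, 517 at an unadjusted p under 0.05). Leaving out 1 line at a time gave 2421 (without MDA-MB-436) to 3898 (without HCC38) called genes, and 1362 to 2282 higher and 1059 to 1717 lower. Genes without overlap (2752 of 14544, 1931 higher and 821 lower) numbered 1145 of 4275 (979 and 166) at a mean of 1000 or more. They numbered 1250 higher under TMM, and 1054 higher and 1260 lower when centred. Without MDA-MB-157 and HCC70, added after seeing the data, 1294 were lower. With lines left out fewer changes have to be apart, so these counts can only stay or grow and do not measure robustness. Leaving out 1 line, the total ranged from 3110 to 4019, the higher genes from 2156 to 2822 and the lower genes from 905 to 1292. In DMSO the count of 0 was 0 to 1 over the lines left out, the 1 being LOC84740 without MDA-MB-157 (named after its value was seen), and 0 at every other setting, with 214 to 946 at an unadjusted p under 0.05. The difference in the depth of TLT libraries was 4.45 to 6.05 M reads when each line was left out, with an exact p of 0.057, the smallest that 3 against 4 can give. Of 125 named genes fitted over all lines, the 105 called ones kept their direction. Of the uncalled, 3 changed sign: ACACB (0.31) was -0.13 at pseudocount 10, -0.025 without MDA-MB-157 and HCC70, and -0.055 (without HCC70) to 0.49 with 1 line left out; PRKAA1 (-0.043) ranged from -0.13 to 0.034 with 1 line left out; SPOCD1 (0.055) was -0.28 at pseudocount 0.1, -0.23 without MDA-MB-157 and HCC70, and -0.17 to 0.46 with 1 line left out. Calls were lost for 103 without the block, 15 without trend, 13 without MDA-MB-157 and HCC70 and 6 under TMM. Single libraries per line and condition limit every change of a single line.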
